A study of Mus musculus with 24 samples.

Results

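The integrated stress response and the unfolded protein response were followed in mouse macrophages through 10 genes, chosen by symbol: Atf4, Asns, Ddit3, Trib3, Sesn2, Ppp1r15a, Herpud1, Hspa5, Xbp1 and Dnajc3. All 10 were present among the 11590 genes of the deposited count table. The first 6 are treated below as the ATF4 branch and the last 4 as the endoplasmic reticulum (ER) chaperone branch. The cells were macrophages grown from the bone marrow of male C57BL/6 mice that were wild-type (WT) or GPR35-deficient (KO), where GPR35 is a G protein-coupled receptor. Every culture was grown with the growth factor M-CSF. On day 7 it was left untreated (Cont), given lysophosphatidic acid (LPA, a signalling lipid) at 10 µM or given lipopolysaccharide (LPS, a bacterial cell wall component) at 10 ng/mL, for 4 h. Each of the 6 groups (WT Cont, WT LPA, WT LPS, KO Cont, KO LPA and KO LPS) had 4 replicates. The labels give neither the way the deficiency was made, nor the age of the mice, nor whether replicates came from separate mice, so p-values measure only the spread between these samples.

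In the integrated stress response, kinases that sense amino acid shortage, double-stranded RNA, haem shortage or misfolded ER protein phosphorylate the translation factor eIF2. General translation then falls, while the mRNA of the transcription factor ATF4 is translated better, and ATF4 switches on genes for amino acid supply and for recovery or death. The unfolded protein response is run by the ER sensors PERK, IRE1 and ATF6. PERK feeds into eIF2 and ATF4, whereas IRE1, through the spliced mRNA of Xbp1, and ATF6 raise chaperones and degradation factors of the ER. In macrophages, Toll-like receptor signals such as LPS are known to engage parts of both programmes.

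Promoter stretches are shown first, because ATF4 and the ER sensors are known to act through different DNA elements. The elements searched were CARE (TGATGNAA, bound by pairs of ATF4 with C/EBP factors), ERSE (CCAAT and CCACG with 9 bases of any kind between them, bound by NF-Y with ATF6 or XBP1), ERSE-II (ATTGG and CCACG with 1 base between them) and the core TGACGTGG of the unfolded protein response element. The search covered both strands of the 250 bases upstream of each RefSeq transcript start (GRCm38.p6), and all 10 genes had such a window. Stretches are written 5′ to 3′ on the gene's strand, with the matched element in capitals. ERSE and ERSE-II have CCACG in common, as has the reverse complement of TGACGTGG, but no matches shown here overlap each other.
Asns, CARE, chr6:7693210-7693262 (minus strand): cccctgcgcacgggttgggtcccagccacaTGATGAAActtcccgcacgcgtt
Herpud1, CARE as reverse complement, chr8:94386287-94386354 (plus strand): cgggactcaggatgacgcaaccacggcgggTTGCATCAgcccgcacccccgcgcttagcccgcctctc
Herpud1, ERSE-II, chr8:94386347-94386417 (plus strand): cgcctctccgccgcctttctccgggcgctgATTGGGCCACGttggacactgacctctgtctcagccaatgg
Hspa5, ERSE, chr2:34771995-34772073 (plus strand): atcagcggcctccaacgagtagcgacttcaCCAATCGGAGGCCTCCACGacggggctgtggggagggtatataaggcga
Dnajc3, ERSE, chr14:118937797-118937875 (plus strand): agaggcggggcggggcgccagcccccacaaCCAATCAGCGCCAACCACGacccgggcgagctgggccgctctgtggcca
A CARE match was found for 2 of the 10 genes (Asns and Herpud1) and for 3.91% of the 27025 genes with a window. ERSE matches were found for 2 of the 10 (Hspa5 and Dnajc3) and for 0.13% of all genes, and ERSE-II for 1 (Herpud1) and for 0.037% of all. The core TGACGTGG was found for 0 of the 10 and for 0.603% of all genes. Herpud1 was the only one of the 10 with both a CARE match and an ERSE-type match. The other 6 genes had none of the 4 motifs in these windows, which says only that these letters are not there.

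The genes lie on the mouse genome (RefSeq, GRCm38.p6) as follows. The ATF4 branch comprises Atf4 at chr15:80255184-80257545, Asns at chr6:7675165-7693209, Ddit3 at chr10:127290793-127296291, Trib3 at chr2:152337425-152344060, Sesn2 at chr4:132492804-132510456 and Ppp1r15a at chr7:45522917-45526268. The chaperone branch comprises Herpud1 at chr8:94386429-94395371, Hspa5 at chr2:34772090-34776529, Xbp1 at chr11:5520641-5525993 and Dnajc3 at chr14:118937932-118981702. Counts are totals over each whole gene as deposited.

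Library totals were 31985119 to 46697165 counts in WT and 15167683 to 21461866 in KO, and the labels list a pair of flow-cell lanes for each WT library and a single lane for each KO library, so depth and lanes cannot be told apart from genotype. Levels are given as CPM, a gene's counts relative to its library's total after TMM scaling, as mean ± SD with n = 4. Gpr35 was at 2.60 ± 0.214 CPM in WT Cont and 0.133 ± 0.071 CPM in KO Cont, and it was at 0 counts in all 4 KO LPS libraries. In WT LPS it was at 0.417 ± 0.15 CPM, a log2 change of -2.63 ± 0.29 (SE) from WT Cont (edgeR adjusted p = 5.1e-08). All 8 macrophage markers were measured and summed to 30900 to 47200 CPM per library. Of 8 neutrophil markers 7 were measured, at 168 to 533 CPM in sum, and no lymphocyte, dendritic cell or mast cell marker of the lists was in the table. Of 6 stromal and endothelial markers 4 were measured, with sums of 1.80 to 13.6 CPM outside KO LPA and 11.6 to 26.3 CPM in KO LPA. Pf4 and Ppbp, the only 2 measured of 6 erythroid and megakaryocyte markers, summed to 74.7 to 93.7 CPM in WT Cont, 118 to 188 CPM in WT LPA, 159 to 186 CPM in WT LPS, 83.1 to 101 CPM in KO Cont, 90.8 to 109 CPM in KO LPA and 186 to 214 CPM in KO LPS. Both were called higher with LPA in WT and with LPS in each genotype. The part of these markers in the results below was not tested.

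At rest, the genes covered a wide range of levels, and the genotypes could not be separated. Per kilobase of gene length, WT Cont levels were highest for Hspa5 (353 CPM per kb), which encodes the main ER chaperone BiP, followed by Atf4 (81.9 CPM per kb) and Xbp1 (62.2 CPM per kb). Herpud1 (32.7), Ddit3 (26.5) and Dnajc3 (23.3 CPM per kb) came next. Ppp1r15a (12.5), Asns (10.1), Sesn2 (9.43) and Trib3 (2.14 CPM per kb) were lowest. Between KO Cont and WT Cont, 0 of 10 were called at an adjusted p below 0.05 by edgeR's quasi-likelihood test, 0 of 10 reached an unadjusted p below 0.05, and DESeq2 also called 0. Over all genes 0.00863% were called in that comparison. The log2 differences lay between -0.09 and 0.07, and their 95% intervals between -0.71 and 0.63. In these bulk libraries fewer expressing cells and less RNA per cell cannot be told apart, here and below.

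**Figure D1:**
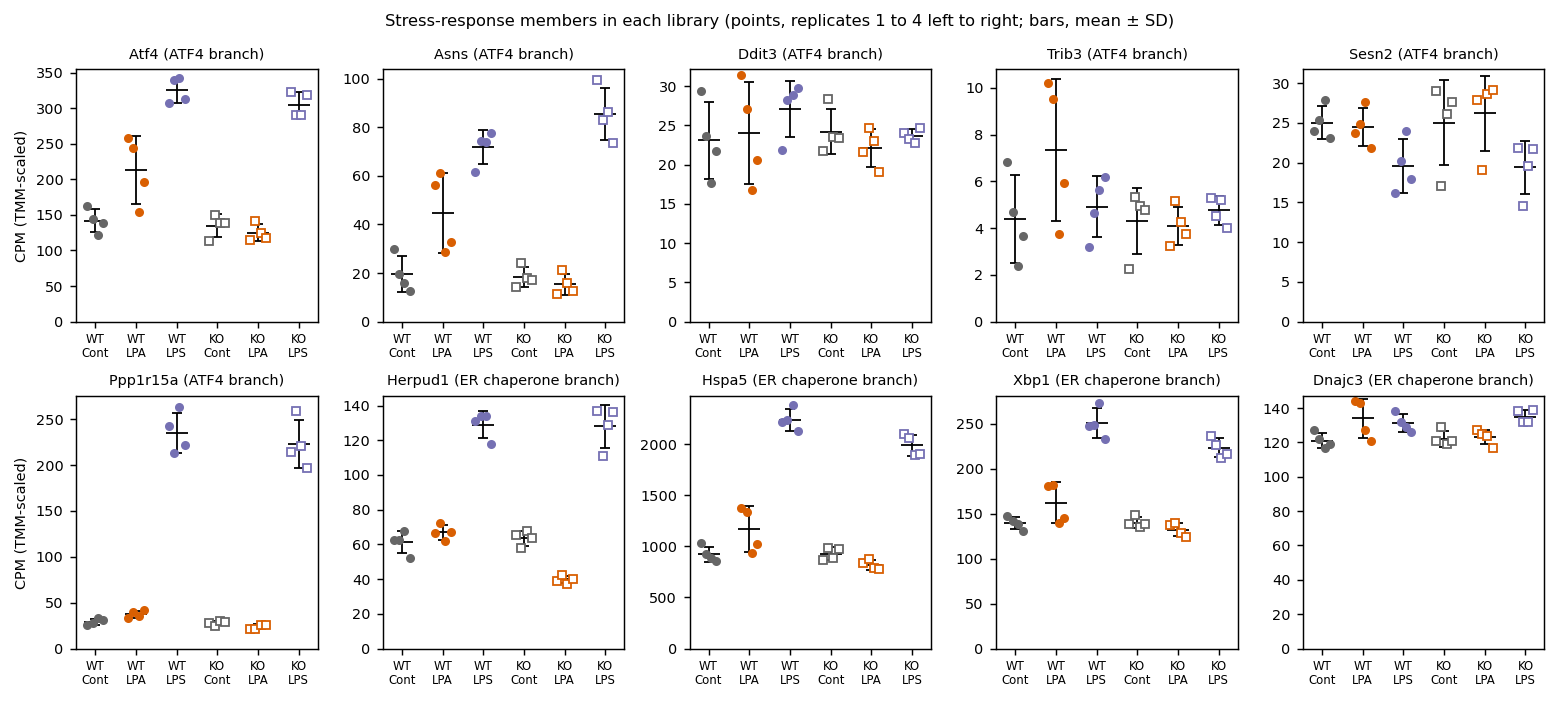
Levels of the 10 genes in each of the 24 libraries, as TMM-scaled CPM on axes that start at 0, with points for replicates 1 to 4 from left to right and bars for the mean ± SD of each group. WT LPA replicates 1 and 2 stand above replicates 3 and 4 for Atf4, Asns, Ddit3, Trib3, Hspa5, Xbp1 and Dnajc3, and both LPS groups stand clear of the others for Ppp1r15a, which reaches 213 to 263 CPM in WT.

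LPA raised 6 of the 10 genes in WT macrophages and lowered none: Atf4, Asns and Ppp1r15a of the ATF4 branch, and Hspa5, Xbp1 and Dnajc3 of the ER chaperone branch. The largest of these rises was a 2.29-fold increase of Asns, and the smallest a 1.11-fold increase of Dnajc3. Over all genes, 44.6% were called in this comparison and 23.5% were called higher, and the 6 of 10 are to be read against that share. The median log2 change was 0.28 over the 10 genes and -0.01 over all genes tested.

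Atf4, the transcription factor that drives its branch, was at 162, 144, 122 and 138 CPM in the 4 WT Cont libraries and at 258, 244, 154 and 196 CPM in the 4 WT LPA libraries. Replicates 1 and 2 were the highest under LPA, and replicate 3 fell within the untreated range. The LPA value was nonetheless the higher in each of the 4 same-numbered pairs, by 0.33 on the log2 scale for replicate 3. The log2 change was 0.59 ± 0.12 (SE; edgeR adjusted p = 0.00055). Asns, which makes asparagine and carries the CARE shown above, was at 29.8, 19.6, 16.0 and 12.7 CPM without treatment and at 56.4, 61.2, 28.8 and 32.6 CPM with LPA. The highest untreated library lay above the lowest LPA library, so the groups overlapped. Its log2 change was 1.20 ± 0.25 (edgeR adjusted p = 0.00092). Ppp1r15a, also called GADD34, is the subunit that directs a phosphatase to eIF2 and so ends the response. It was at 25.4, 28.0, 32.9 and 30.7 CPM without treatment and at 33.3, 39.6, 35.0 and 41.6 CPM with LPA. This was the only one of the 10 whose 4 LPA libraries all lay above all 4 untreated ones, as 18% of all genes did. Its log2 change was 0.35 ± 0.10 (edgeR adjusted p = 0.0059).

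The other ATF4 branch genes were not called. Trib3, a pseudokinase that restrains ATF4 and AKT signalling, was at 6.85, 4.68, 2.38 and 3.68 CPM in WT Cont and 10.2, 9.53, 3.76 and 5.94 CPM in WT LPA. The LPA value exceeded the untreated value of the same number in all 4 pairs, and the log2 change was 0.74 ± 0.30 (edgeR adjusted p = 0.054). With a term for the replicate number the adjusted p was 0.032 and with DESeq2 it was 0.037, and it was 0.0089 to 0.048 without WT Cont 1, WT LPA 3 or WT LPA 4. Ddit3, which encodes the pro-death factor CHOP, was at 29.4, 23.6, 17.7 and 21.7 CPM without and 31.4, 27.1, 16.8 and 20.6 CPM with LPA, a log2 change of 0.05 ± 0.16 (edgeR adjusted p = 0.80). Its 95% interval reached 0.38, so a rise of the size seen for Asns lay outside it. Sesn2, a sestrin that restrains mTORC1, was at 23.1 to 27.9 CPM without and 21.8 to 27.6 CPM with LPA, a log2 change of -0.03 ± 0.15 (edgeR adjusted p = 0.87).

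In the chaperone branch the rises were small. Hspa5 was at 1030, 925, 889 and 853 CPM in WT Cont and at 1380, 1340, 939 and 1020 CPM in WT LPA, a log2 change of 0.34 ± 0.10 (edgeR adjusted p = 0.0068). As for Atf4, LPA replicates 1 and 2 were the highest. Replicates 3 and 4 lay within the untreated range of Hspa5, whereas replicate 4 of Atf4 (196 CPM) lay above its untreated libraries. In same-numbered pairs Hspa5 was higher with LPA in all 4, by 0.43, 0.53, 0.08 and 0.25 on the log2 scale. Xbp1, the transcription factor made active by IRE1, was at 131 to 147 CPM without treatment and at 181, 182, 140 and 145 CPM with LPA (log2 change 0.21 ± 0.07, edgeR adjusted p = 0.023). Gene counts do not separate its spliced from its unspliced mRNA. Dnajc3, a co-chaperone of BiP also known as p58IPK, was at 117 to 127 CPM without and at 144, 143, 127 and 121 CPM with LPA (log2 change 0.15 ± 0.05, edgeR adjusted p = 0.022). Herpud1, a membrane protein of ER-associated degradation, was not called, with a log2 change of 0.13 ± 0.08 (edgeR adjusted p = 0.18).

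Without a term for the replicate number, the chaperone branch calls with LPA in WT were the least firm. Those of Hspa5, Xbp1 and Dnajc3 did not hold when only the WT Cont and WT LPA libraries were fitted (edgeR adjusted p = 0.064, 0.097 and 0.093), which left 3 called. Without WT LPA 1, WT LPA 2, WT Cont 3 or WT Cont 4, the adjusted p was 0.051 to 0.12 for Xbp1 and 0.055 to 0.099 for Dnajc3. The call of Dnajc3 was also lost with thinned counts (log2 change 0.13, 0.081) and with library totals alone (0.09, 0.14). With a term for the replicate number, Hspa5, Xbp1 and Dnajc3 all kept their calls (edgeR adjusted p = 0.0024, 0.009 and 0.0064).

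In KO macrophages, LPA changed 1 of the 10 genes: Herpud1 fell. Over all genes 2.62% were called, and 1.06% were called lower. Herpud1 was at 65.2, 57.7, 67.9 and 63.5 CPM in KO Cont and at 38.7, 42.6, 37.4 and 40.3 CPM in KO LPA. All 4 LPA libraries lay below all 4 untreated ones, as they did for 4.18% of all genes, and the LPA value was the lower in each of the 4 same-numbered pairs. The log2 change was -0.68 ± 0.08 (edgeR adjusted p = 2.6e-05), a 1.60-fold decrease, and it lay between -0.72 and -0.64 over the 16 alternatives, with adjusted p of at most 0.00068. By size of change it was 185th of the 11590 genes.

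The other 9 were not called with LPA in KO, with log2 changes from -0.26 to 0.07. Atf4 was at 113, 150, 139 and 139 CPM in KO Cont and at 115, 142, 124 and 117 CPM in KO LPA (log2 change -0.12 ± 0.12, edgeR adjusted p = 0.79). Asns was at 14.4, 24, 17.9 and 17.2 CPM without and at 11.4, 21.3, 16.0 and 12.7 CPM with LPA (-0.26 ± 0.28, edgeR adjusted p = 0.81). These groups overlapped for both genes. Ppp1r15a was at 28.3, 24.6, 30.2 and 28.6 CPM without and at 21.5, 21.0, 25.8 and 25.8 CPM with LPA. That difference had an unadjusted p of 0.03 and an edgeR adjusted p of 0.32. Hspa5, at 869 to 989 CPM without and 778 to 874 CPM with LPA, gave -0.18 ± 0.10 (edgeR adjusted p = 0.47).

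The difference of the LPA effect between the genotypes (KO minus WT) was tested as an interaction, and 6 of the 10 passed, all with a lower value in KO. Over all genes 28.5% were called in that test and 15.8% were called lower. The 6 were Asns (-1.46 ± 0.38, edgeR adjusted p = 0.0081), Herpud1 (-0.80 ± 0.11, 3.7e-05), Atf4 (-0.71 ± 0.17, 0.0046), Ppp1r15a (-0.60 ± 0.14, 0.0045), Hspa5 (-0.52 ± 0.14, 0.0073) and Xbp1 (-0.29 ± 0.10, 0.040), on the log2 scale. Herpud1 had the smallest p of the 10 here, and its interaction combined a fall in KO with a change that was not called in WT. For Atf4, Asns, Ppp1r15a, Hspa5 and Xbp1 it combined a rise in WT with a change that was not called in KO. Trib3 (-0.81 ± 0.46, edgeR adjusted p = 0.19), Ddit3 (-0.19 ± 0.23), Dnajc3 (-0.14 ± 0.07) and Sesn2 (0.10 ± 0.22) were not called. The call of Xbp1 was lost in 9 of 16 fits with 1 library left out, which were those without WT LPA 1 or 2, WT Cont 2, 3 or 4, KO Cont 2 or 4 or KO LPA 3 or 4 (edgeR adjusted p = 0.051 to 0.11), and with library totals alone (0.070) or only the compared groups (0.063). With a term for the replicate number Xbp1 kept its call (edgeR adjusted p = 0.015). Dnajc3 was called without WT LPA 4 (0.048).

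**Figure D2:**
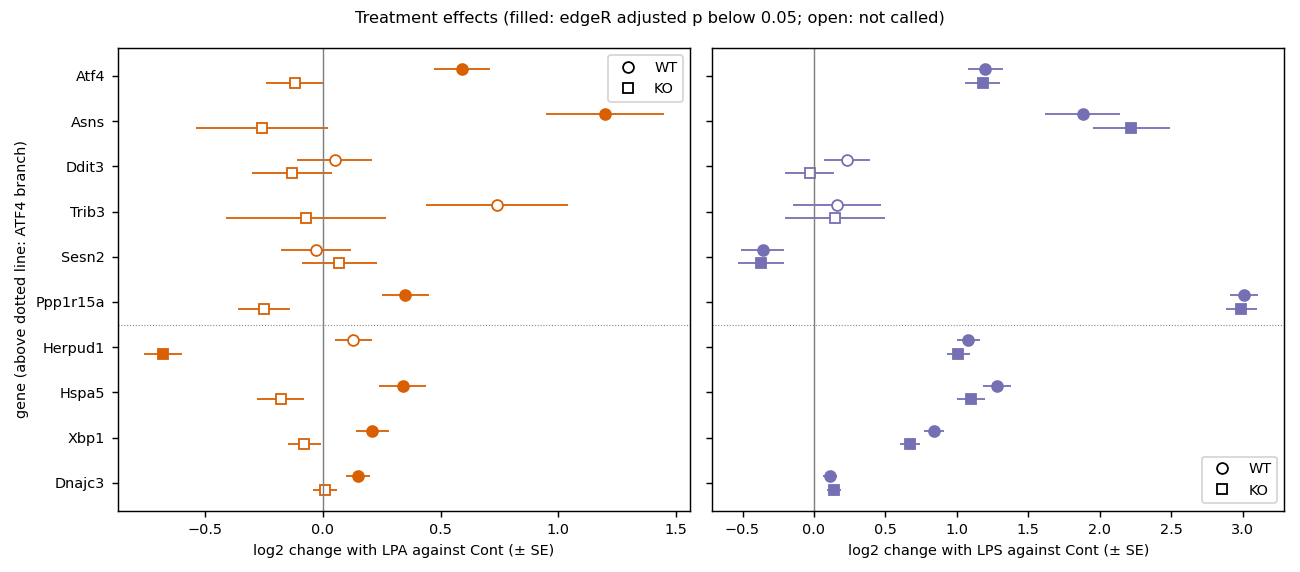
Log2 change with LPA (left) and LPS (right) against untreated cells for each gene, with circles for WT, squares for KO and lines for ± SE, where filled symbols passed an edgeR adjusted p of 0.05 and the panels have different axis ranges. With LPA the WT values of Asns (1.20) and Atf4 (0.59) lie to the right of 0 and KO Herpud1 (-0.68) lies to the left, whereas with LPS the WT and KO symbols lie close together.

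Set directly against WT LPA, KO LPA macrophages had lower levels of 7 of the 10 genes. Over all genes 50.3% were called in that comparison and 25.9% were called lower. Herpud1 was 1.68-fold lower in KO LPA (61.8 to 72.1 CPM in WT LPA against 37.4 to 42.6 CPM), and Atf4 was 1.71-fold lower (154 to 258 against 115 to 142 CPM). Asns was 2.93-fold lower (28.8 to 61.2 against 11.4 to 21.3 CPM). Ppp1r15a was 1.58-fold lower, Hspa5 1.43-fold and Xbp1 1.22-fold, and their edgeR adjusted p were 2.2e-05, 0.00016 and 0.0025. For 5 of the 10 all KO LPA libraries lay below all WT LPA libraries, as they did for 18.7% of all genes. Trib3 was 1.80-fold lower (edgeR adjusted p = 0.034), but not with only the compared groups (0.053), with those groups and a term for the replicate number (0.081), with thinned counts (0.051), or without WT LPA 1 or 2 or KO LPA 1, 3 or 4 (0.057 to 0.12). Dnajc3 had a log2 difference of -0.12 ± 0.05 (edgeR adjusted p = 0.054). It was called lower with DESeq2 (0.041), median-ratio size factors (0.049) and the stricter filter (0.047), and without WT LPA 3 or 4 (0.0093 to 0.027). Ddit3 and Sesn2 were not called. This comparison and the interaction share the same LPA libraries, so they are not separate evidence.

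LPS changed 8 of the 10 genes in WT and 8 in KO: 7 rose in each genotype and Sesn2 fell. With LPS, 84.2% of all genes were called in WT (40.6% higher, 43.6% lower) and 82.3% in KO (39.3% higher, 43% lower), so a call with LPS is the common case and the sizes are described below. The largest change was that of Ppp1r15a. It was at 25.4 to 32.9 CPM in WT Cont and at 243, 213, 263 and 222 CPM in WT LPS, 8.04-fold higher, and at 24.6 to 30.2 CPM in KO Cont and at 214, 259, 221 and 197 CPM in KO LPS, 7.97-fold higher. All LPS libraries lay far above all untreated ones. The log2 changes were 3.01 ± 0.10 and 2.99 ± 0.11 (edgeR adjusted p = 3.3e-17 and 8.0e-17). How many of all genes separate in this way between LPS and untreated libraries is not given. Such separation is therefore not read as particular to any of the 10 genes, here and below. Exons of Ppp1r15a overlap those of Tulp2 on the opposite strand, which was not among the genes of the table.

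Asns rose 3.68-fold with LPS in WT, to 61.5, 74.5, 73.8 and 77.9 CPM, and 4.67-fold in KO, to 99.5, 82.9, 86.2 and 73.6 CPM. Atf4 rose 2.30-fold in WT, to 307, 339, 342 and 313 CPM, and 2.26-fold in KO, to 322, 291, 290 and 318 CPM. For both genes the LPS libraries lay above all untreated libraries of their genotype. Ddit3 and Trib3 were not called, although Atf4 itself rose more than with LPA. Ddit3 was at 21.8, 28.2, 28.8 and 29.7 CPM in WT LPS (log2 change 0.23 ± 0.16, edgeR adjusted p = 0.18; 0.038 without WT Cont 1) and at 22.7 to 24.7 CPM in KO LPS (-0.03 ± 0.17, 0.86). Trib3 was at 3.19, 4.66, 5.65 and 6.20 CPM in WT LPS (0.16 ± 0.31, edgeR adjusted p = 0.65) and at 4.00 to 5.30 CPM in KO LPS (0.15 ± 0.35, 0.70). Scaled by library totals alone, Ddit3 was called lower with LPS in WT (-0.32, edgeR adjusted p = 0.043) and in KO (-0.53, 0.0037). Exons of Ddit3 overlap Mars and Gm4189 on the opposite strand, and whether counting used the strand is not given in the sources used here. Mars itself was at 39.4 ± 5.91 CPM in WT Cont, 58.0 ± 9.78 CPM in WT LPA and 52.4 ± 2.99 CPM in WT LPS.

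Sesn2 fell with LPS, from 24, 25.3, 27.9 and 23.1 CPM to 16.2, 20.2, 24 and 17.9 CPM in WT, and from 29.0, 17.1, 26.1 and 27.6 CPM to 21.8, 14.6, 19.6 and 21.7 CPM in KO. The groups overlapped in both genotypes, with replicate 2 the lowest of both KO groups. The log2 changes were -0.36 ± 0.15 in WT (edgeR adjusted p = 0.036) and -0.37 ± 0.16 in KO (0.044). The LPS value was the lower in all 4 same-numbered pairs of each genotype, and with a term for the replicate number the log2 change was -0.36 ± 0.06 in both (edgeR adjusted p = 6.0e-06 in WT and 3.1e-05 in KO). Without that term the calls depended on the setting. With median-ratio size factors the adjusted p were 0.056 and 0.070, with thinned counts 0.053 in WT, and with DESeq2 or only the compared groups 0.055 and 0.085 in KO. Scaled by library totals alone both were called (-0.92 and -0.86). Leaving out any of 5 libraries lost the call in WT (WT LPS 1, 2 or 4, WT Cont 2 or 3; 0.051 to 0.12) and any of 5 in KO (KO Cont 1, 3 or 4, KO LPS 2 or 3; 0.068 to 0.17).

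The chaperone branch rose with LPS in the order Hspa5, Herpud1, Xbp1 and Dnajc3 in both genotypes. Hspa5 reached 2220, 2240, 2390 and 2130 CPM in WT (2.43-fold) and 2100, 2060, 1900 and 1910 CPM in KO (2.14-fold). Herpud1 reached 131, 134, 134 and 118 CPM in WT (2.11-fold) and 137, 111, 129 and 136 CPM in KO (2.02-fold). Xbp1 reached 233 to 273 CPM in WT (1.79-fold) and 212 to 236 CPM in KO (1.59-fold). No LPS library of these 3 genes lay within the untreated range. Herpud1 in KO thus moved down with LPA and up with LPS from the same untreated libraries. Dnajc3 changed least: its log2 change was 0.11 ± 0.05 in WT (edgeR adjusted p = 0.041) and 0.14 ± 0.05 in KO (0.014), but -0.44 and -0.35, both called, when libraries were scaled by their totals alone. Its call in WT was also lost without WT LPS 1 or 2 or WT Cont 2, 3 or 4 (0.061 to 0.13), with thinned counts (0.12) and with the stricter filter (0.11), and the last also ended the call in KO (0.074). Scaling by totals alone moved the median log2 change of all genes from -0.04 to -0.59 in WT and from -0.05 to -0.55 in KO, and changes with LPS are to be read relative to that median.

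The genotype did not alter the LPS response of the 10 genes by an amount that passed the test. Gpr35 itself was 6.2-fold lower with LPS in WT, and the part of this fall was not tested. In the interaction for LPS, 0 of 10 were called by edgeR, 0 had an unadjusted p below 0.05, DESeq2 called 0, and 0% of all genes were called. The log2 differences lay between -0.26 and 0.35, with 95% intervals reaching from -0.98 to 1.10. Between KO LPS and WT LPS, 0 of 10 were called by edgeR and by DESeq2, against 2.85% of all genes, and 1 had an unadjusted p below 0.05. Those log2 differences lay between -0.20 and 0.25, with a smallest adjusted p of 0.22 and 95% intervals from -0.75 to 0.77. The values of single genes in these comparisons and between untreated genotypes are given as ranges only.

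Within WT, LPS was set against LPA to compare the strength of the responses. In that comparison 6 of the 10 were higher with LPS and none lower. Over all genes 78.9% were called, and 37.8% were called higher. Ppp1r15a was 6.29-fold higher with LPS than with LPA, Herpud1 1.93-fold, Hspa5 1.92-fold, Asns 1.61-fold, Xbp1 1.55-fold and Atf4 1.53-fold. For these 6 every LPS library lay above every LPA library, which held for 34.5% of all genes. With library totals alone Atf4 (log2 difference 0.11, edgeR adjusted p = 0.34), Asns (0.19, 0.46) and Xbp1 (0.13, 0.054) were not called, while Trib3 (-1.08), Sesn2 (-0.83), Dnajc3 (-0.53) and Ddit3 (-0.32) were called lower. Asns was also lost without WT LPA 3 or 4 (0.057 to 0.062). Trib3 was at 3.76 to 10.2 CPM with LPA and 3.19 to 6.20 CPM with LPS, a log2 difference of -0.58 ± 0.31 (edgeR adjusted p = 0.091; 0.018 without WT LPA 3). Sesn2 gave -0.32 ± 0.15 (0.060), and it was called lower with a term for the replicate number (-0.33 ± 0.06, 2.5e-05), with only the compared groups (0.029), with the stricter filter (0.047), and without WT LPS 3 or WT LPA 4 (0.018 to 0.045).

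The branches were compared with a score per library: the mean log2 CPM of a branch's genes relative to their WT Cont means. No p is given, because the genes were chosen with results of these libraries known. In WT LPA the ATF4 branch score was 0.73, 0.73, 0.10 and 0.33, and the chaperone score was 0.34, 0.35, 0.03 and 0.08, for replicates 1 to 4. The ATF4 branch exceeded the chaperone branch in all 4, by 0.27 ± 0.15 (SD, n = 4). Both scores were high in replicates 1 and 2, and replicate 3 was near the mean of the untreated group in both. In WT Cont the ATF4 score was 0.29, 0.05, -0.20 and -0.14 for replicates 1 to 4. The chaperone score was 0.08, 0.02, 0.01 and -0.11 there. Against the same-numbered untreated library both scores were thus higher with LPA in all 4 pairs, replicate 3 included. The difference was 0.39, 0.38, 0.07 and 0.25 in WT LPA and 0.20, 0.03, -0.21 and -0.03 in WT Cont, for replicates 1 to 4. The ranges of the groups overlapped, while the value in WT LPA was the higher in each of the 4 same-numbered pairs. In KO LPA the ATF4 score was -0.14 ± 0.12 and the chaperone score -0.21 ± 0.06, a difference of 0.07 ± 0.12. Of the chaperone genes only Herpud1 was called with LPA in KO (log2 change -0.68). Hspa5 (-0.18), Xbp1 (-0.08) and Dnajc3 (0.01) were not called.

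With LPS the scores were 1.04 ± 0.16 and 0.83 ± 0.06 in WT and 1.02 ± 0.08 and 0.75 ± 0.05 in KO. The difference was 0.21 ± 0.18 in WT and 0.27 ± 0.05 in KO, but its sign rested on Ppp1r15a. Without that gene, in a calculation added after seeing the data, it was -0.18 ± 0.21 in WT and -0.11 ± 0.07 in KO. With the median over genes in place of the mean it was -0.20 in WT and -0.17 in KO. The same removal gave 0.30 ± 0.21 in WT LPA. It could not lower that difference, because the change of Ppp1r15a with LPA (0.35) was below the branch score (0.47 ± 0.31). The largest changes of the branch with LPA were those of Asns (1.20) and Trib3 (0.74, not called). Ddit3 (0.05) and Sesn2 (-0.03) had the smallest. The difference without Asns was not calculated.

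**Figure D3:**
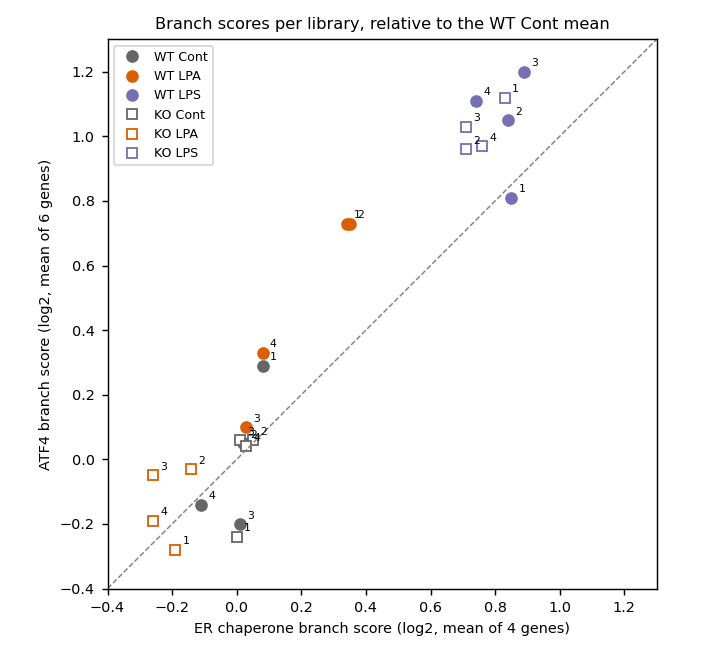
ATF4 branch score against ER chaperone branch score, both as mean log2 change from the WT Cont means, 1 point per library labelled by its replicate number, with a dashed line where the scores are equal. WT LPA replicates 1 and 2 (0.73 on the vertical axis) lie between the untreated and the LPS libraries, and the 4 KO LPA libraries lie at negative chaperone scores.

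How the genes moved together from replicate to replicate was described with Pearson's r over the 24 libraries after subtraction of each group's mean log2 CPM. The points share library, depth and scaling, and r is given as a description only. Same-numbered libraries of a genotype also deviated together over all genes (mean r 0.31, above 0.1 in 22 of 24 pairs). The 24 points are therefore not independent. The exon overlap of Ddit3 with Mars applies to its r as well. Atf4 ran with Ddit3 (r = 0.89), Trib3 (0.87) and Asns (0.83), so Ddit3 and Trib3, which were not called with either agent, varied with Atf4 between replicates. Within WT alone these values were 0.93, 0.89 and 0.83, and within KO alone 0.81, 0.84 and 0.81. Trib3 ran less closely with Xbp1 (0.55) and Dnajc3 (0.40), and within KO alone those values were 0.22 and 0.16. Hspa5 ran with Xbp1 (0.94) and Dnajc3 (0.77), and also with Atf4 across the branches (0.85; 0.92 in WT and 0.61 in KO). Ppp1r15a, Sesn2 and Herpud1 stood apart from these, with r against Atf4 of -0.33, -0.29 and 0.24. The median over the 15 pairs of the ATF4 branch was -0.26, below the 0.40 over the 24 pairs between branches, and that over the 6 chaperone pairs was 0.54.

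**Figure D4:**
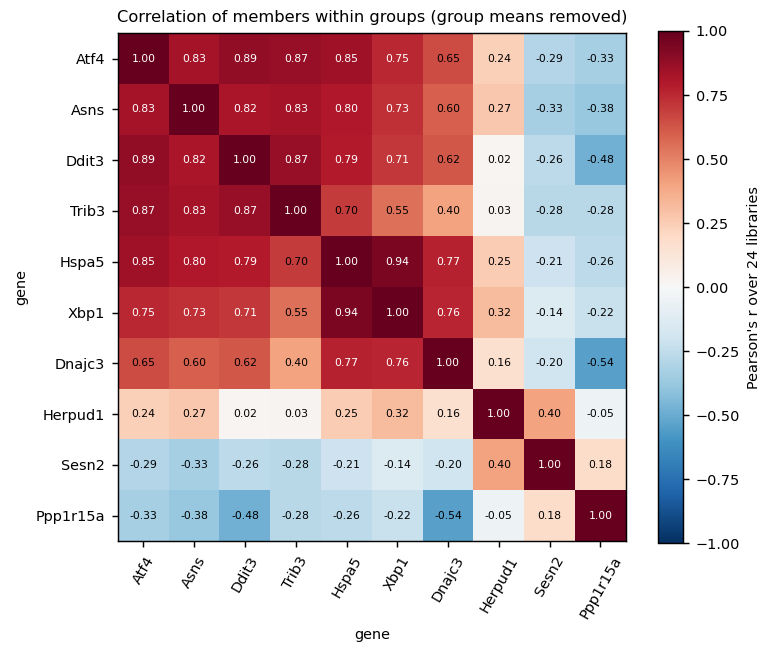
Pearson's r between each pair of the 10 genes over 24 libraries, after group means were removed, on a colour scale from -1 (blue) to 1 (red). A block of 7 genes, from Atf4 to Dnajc3, is positive throughout (0.40 to 0.94), whereas Herpud1, Sesn2 and Ppp1r15a form no such block with it.

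The wider pathways were read from 8 lists written from general knowledge, described by counts and medians. The lists were chosen with earlier results of these data known, so their counts are a description only. ATF4 target genes for amino acid supply and one-carbon metabolism had 16 of 22 members measured, of which 10 rose and 2 fell with LPA in WT, where 44.6% of all genes were called and 23.5% were higher. The median log2 change was 0.49, against -0.01 over all genes. With LPA in KO 1 rose and 0 fell (2.62% of all genes called), and in the LPA interaction 8 were lower and 1 higher (28.5% of all genes called, 15.8% lower). Slc7a11, the cystine importer, rose by 1.94 ± 0.23 on the log2 scale with LPA in WT and by 3.90 ± 0.24 with LPS, and its LPA interaction was -1.44 ± 0.35. Slc7a5, a leucine transporter, rose by 1.12 ± 0.23 and 2.58 ± 0.23, with an interaction of -1.61 ± 0.37. Slc7a1, a transporter of cationic amino acids, rose by 1.08 ± 0.21 and 2.35 ± 0.22, and Mthfd2, a mitochondrial folate enzyme, by 1.06 ± 0.21 and 2.33 ± 0.21. Got1, an aspartate aminotransferase, moved the other way: it fell with LPA in WT (-0.37 ± 0.14) and with LPS (-2.15 ± 0.15), and rose with LPA in KO (0.55 ± 0.14, edgeR adjusted p = 0.037). That rise kept its call without KO Cont 1 or KO LPA 2 and lost it without any of the other 6 KO libraries, and no gene of the list was called lower with LPA in WT without WT LPA 2, WT LPA 4, WT Cont 3 or WT Cont 4.

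Among 9 partners and regulators of ATF4, 7 rose and 0 fell with LPA in WT, against 23.5% of all genes higher and 44.6% called. With LPS in WT 8 rose and 1 fell, against 84.2% of all genes called (40.6% higher), and with LPA in KO 0 were called, against 2.62%, so the number called in these 2 comparisons is near that of all genes. Jdp2, a bZIP partner, rose by 1.25 ± 0.17 with LPA and 2.5 ± 0.17 with LPS on the log2 scale, and Nupr1, a stress-induced chromatin protein, by 0.68 ± 0.16 and 2.21 ± 0.16. Cebpb, a C/EBP factor that pairs with ATF4, rose by 0.55 ± 0.13 and 1.27 ± 0.14, and Atf3 by 0.35 ± 0.10 and 1.21 ± 0.10. Of the 15 measured of 17 stress output genes, which include Nupr1 and Atf3 as well, 8 rose and 2 fell with LPA in WT, against 44.6% of all genes called and 23.5% higher. Sqstm1, an autophagy receptor, rose by 0.54 ± 0.11 and Ero1l, an ER oxidase, by 0.60 ± 0.09, whereas Map1lc3b, an autophagosome protein, was lower (-0.40 ± 0.06).

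The eIF2 control list had all 13 members measured, and 6 rose and 3 fell with LPA in WT (44.6% of all genes called, 23.5% higher). Eif2ak2, the kinase PKR, rose by 0.61 ± 0.09 with LPA and 1.89 ± 0.09 with LPS, while Eif2ak4, the kinase GCN2, was lower with both (-0.31 ± 0.07 and -1.71 ± 0.08). Ppp1r15b, the constitutive counterpart of Ppp1r15a, rose by 0.23 ± 0.07 and 1.55 ± 0.07. Of 8 ER stress sensors 1 rose and 2 fell with LPA in WT, and 2 rose and 5 fell with LPS, which is near the 44.6% and 84.2% of all genes called. Without WT LPA 3 the LPA count was 2 risen and 4 fallen, where 6083 of all 11590 genes were called, against 5165. Ern1, the gene of IRE1, was lower with LPA (-0.35 ± 0.07) and LPS (-1.09 ± 0.07), and Eif2ak3, the gene of PERK, was lower with LPS (-1.24 ± 0.08). Atf6b rose with both (0.34 ± 0.06 and 0.79 ± 0.06).

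Of 25 measured ER chaperones and folding enzymes (of 27 listed), 15 rose and 4 fell with LPA in WT, with a median log2 change of 0.17, where 44.6% of all genes were called and 23.5% were higher. With LPA in KO 0 were called, near the 2.62% of all genes. In the interaction 9 were lower and 4 higher (16 lower and 4 higher with the replicate term), against 28.5% of all genes called and 15.8% lower. The number called over all genes rose with the replicate term as well, from 3301 to 4328 of 11590. The number called with LPA in WT was 12 without WT LPA 1 and 11 without WT LPA 2, against 19, and in the interaction it was 7 without WT LPA 2, against 13. Over all genes the numbers also fell, to 4049 and 3792 from 5165 with LPA in WT. In the interaction they fell to 2259 from 3301. Hyou1, an ER chaperone of the Hsp70 family, rose by 0.69 ± 0.11 with LPA, Dnajb11 by 0.46 ± 0.08 and the disulfide isomerase Pdia6 by 0.45 ± 0.10, whereas Erp29 was lower (-0.36 ± 0.06). ER-associated degradation had 17 of 18 members measured, and 10 rose and 2 fell with LPA in WT. Among those that rose were Vcp, the ATPase that pulls proteins out of the ER (0.35 ± 0.05), and Derl2 (0.30 ± 0.06). All 22 genes of ER translocation and secretory entry were measured, and 14 rose and 1 fell with LPA in WT, where for both lists the share over all genes was again 44.6% called and 23.5% higher. With LPA in KO both of these lists had 0 called, against 2.62% of all genes. Both also had 0 called between the untreated genotypes, near the 0.00863% of all genes, so neither count is particular to these lists.

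The direction of these ER lists with LPS depended on the scaling. With TMM, 16 of the 25 chaperone genes rose and 7 fell in WT, whereas with library totals alone 4 rose and 16 fell. For ER-associated degradation 14 rose and 2 fell, against 4 and 9 with totals alone, and for translocation 20 and 1, against 6 and 10. Over all genes, 48.3% of the called genes were higher with LPS in WT under TMM and 23.3% under totals alone. The ATF4 target genes for amino acid supply kept more rises than falls under both, at 10 and 4 against 8 and 5. With LPA in WT the share of all called genes that were higher was 52.7% under TMM and 40.3% under totals alone, where 8 chaperone genes rose and 5 fell. The same share went from 47.7% to 24.1% with LPS in KO, from 48.4% to 67.4% for KO against WT with LPA, from 44.6% to 59.9% in the LPA interaction, from 24.2% to 78.2% for KO against WT with LPS and from 47.9% to 19.7% for LPS against LPA. In the interaction under totals alone 6 chaperone genes were lower and 4 higher.

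**Figure D5:**
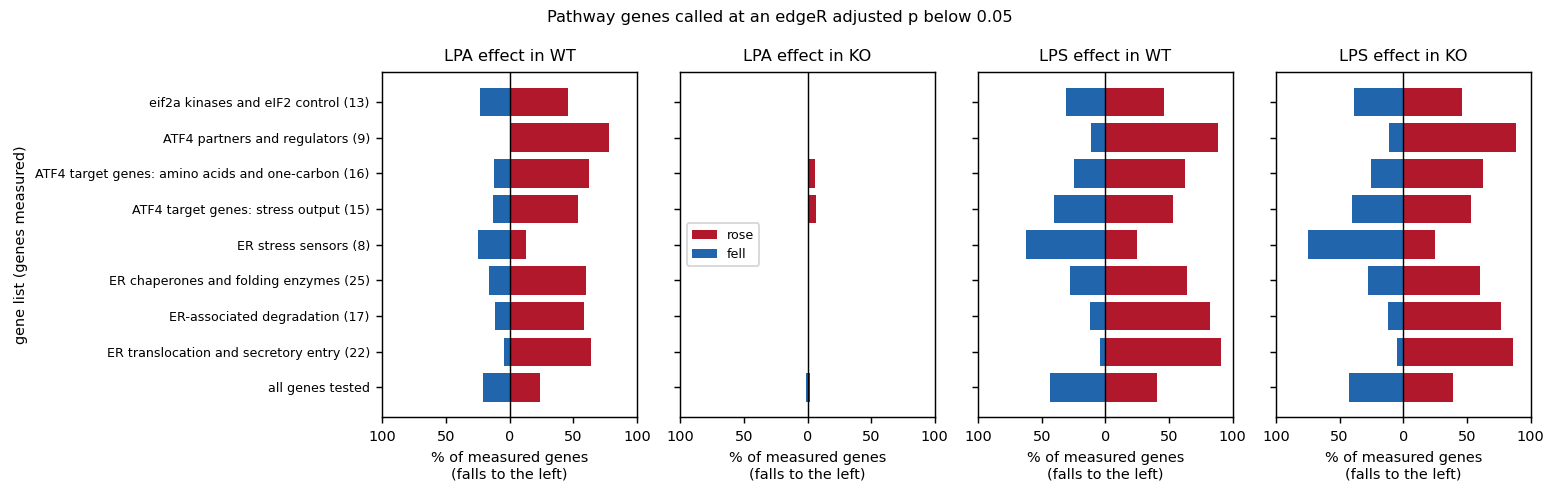
Share of the measured genes of each pathway list, and of all genes tested, that rose (red, to the right) or fell (blue, to the left) at an edgeR adjusted p below 0.05 in 4 comparisons, with TMM scaling. The LPA panel of KO is nearly empty, with 2.62% of all genes called, while 14 of 22 translocation genes rise with LPA in WT. With library totals alone more genes of the last 3 lists fell than rose with LPS, by a margin of 7 rises to 8 falls for ER-associated degradation in KO.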

How the data were processed

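Poly(A) RNA of 24 macrophage libraries was sequenced with a stranded kit. Per the submitters' processing notes, the authors aligned reads with STAR 2.5.2a to mm10. How reads were assigned to genes, with which annotation and whether by strand, is not stated in those notes or labels. The authors deposited whole-number counts per gene for 11590 genes (9 without a symbol), and all count columns were matched to samples. No 2 replicates were copies: over the 36 within-group pairs, chi-square divided by its degrees of freedom was 4.11 to 77.4.

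The counts were fitted with edgeR 4.0.16 in R 4.3.3 (TMM factors 0.739 to 1.18, robust quasi-likelihood F test) with 6 group means over 24 libraries, which left 18 residual degrees of freedom. filterByExpr removed no gene. A call means p below 0.05 after Benjamini-Hochberg adjustment over the whole table, separately in each of 10 comparisons. Branch scores used log2 CPM with a prior count of 2. Alternatives were DESeq2 1.42.0, median-ratio size factors, library totals alone, no filter, a stricter filter (50 counts in every compared group), only the compared groups, counts thinned to the smallest library (15167683), a replicate term and leaving out each library. Of the 10 genes, Trib3 had the lowest counts, 50 to 447 per library.

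The 10 genes and the lists were chosen with earlier results of these data known. All 10 are named in the text, with Gpr35 and, from each list, genes among the 4 of smallest adjusted p in the LPA and in the LPS effect in WT. The scripts were tested on simulated data. Positions and promoters came from RefSeq (GRCm38.p6) and exon overlaps from GENCODE M21.

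The replicate numbers come from the labels. Same-numbered libraries deviated together, with r above 0.1 in all 4 pairs, for LPA in WT, LPA in KO and LPS in KO. Their r were 0.21 to 0.63, 0.28 to 0.77 and 0.20 to 0.51. The main fit of group means has no replicate term, so its p-values do not use this pairing, in these comparisons as in the others. The replicate term (the replicate block) was fitted only as an alternative, and it is given where it changes a call.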

Additional observations from a re-analysis of the deposited data

Results flagged for a closer look

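A Dixon test for an outlying library in each group of 4 marked 2 of 60 gene and group combinations, where chance gives about 3. Sesn2 in KO LPA had a gap of 0.882 of the group's range, from KO LPA 2 at 19.1 CPM. Herpud1 in WT LPS had a gap of 0.846, from WT LPS 4 at 118 CPM.

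The LPA effect differed between the genotypes by the edgeR interaction test for 6 genes, all lower in KO. The log2 differences (KO minus WT) were -0.71 for Atf4, -1.46 for Asns, -0.60 for Ppp1r15a, -0.80 for Herpud1, -0.52 for Hspa5 and -0.29 for Xbp1. Herpud1 was lower in KO LPA than in KO Cont in 4 of 4 same-numbered pairs, and Atf4 and Asns were higher in WT LPA than in WT Cont in 4 of 4.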

How the results depend on the processing

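The number of the 10 genes called with LPA in WT was 3 with only the compared groups, against 6. Over all genes 4458 of 11547 were called in that fit, against 5165 of 11590. Leaving out 1 library moved the number called to 4 to 7 for LPA in WT, 6 to 9 for LPS in WT, 7 to 8 for LPS in KO, 5 to 7 for the LPA interaction, 6 to 8 for KO against WT with LPA and 6 to 7 for LPS against LPA. For LPA in WT, LPS in WT and LPS in KO these fits called 3792 to 6083, 9487 to 9639 and 9248 to 9522 of all 11590 genes. For the LPA interaction they called 2259 to 4632, for KO against WT with LPA 4790 to 6624 and for LPS against LPA 8855 to 9013. The number of the 10 called stayed at 1 for LPA in KO, where 168 to 310 of all genes were called. It stayed at 0 for KO against WT in Cont and in LPS (65 to 577 of all genes) and for the LPS interaction. The branch difference with LPS turned to -0.20 (WT) and -0.17 (KO) with the median over genes and, by leaving out its gene of largest change, to -0.18 and -0.11 without Ppp1r15a. Leaving out 1 library gave 0.20 to 0.33 in KO LPS.

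With library totals alone, log2 values not called with TMM changed sign: Ddit3 to 0 with LPA in WT, -0.32 with LPS in WT and -0.32 for LPS against LPA (the last 2 now called), and Trib3 to -0.40 with LPS in WT and -0.34 in KO. Dnajc3, which was called, turned to -0.44 with LPS in WT and -0.35 in KO. Ddit3 with LPS in KO came to 0 with DESeq2 and with median-ratio size factors. Leaving out 1 library turned the sign of some changes near 0, none of them called: LPA in WT gave -0.10 to 0.19 for Ddit3 and -0.10 to 0.02 for Sesn2. LPA in KO gave -0.29 to 0.04 for Trib3, 0 to 0.04 for Dnajc3 and -0.07 to 0.19 for Sesn2. LPS gave -0.05 to 0.45 (WT) and -0.07 to 0.26 (KO) for Trib3 and -0.08 to 0.05 (KO) for Ddit3. KO against WT with LPA gave -0.26 to 0.04 for Ddit3, and the LPA interaction gave -0.04 to 0.22 for Sesn2. The cause was not tested.

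With the replicate block, 7 genes were called for LPA in WT (Trib3 added), 1 for LPA in KO, 8 for LPS in WT and in KO, 6 for the LPA interaction, 7 for LPS against LPA and 6 for KO against WT with LPA. It called 0 of the 10 between genotypes in Cont and in LPS and for the LPS interaction. Over all 11590 genes it called 6150 (against 5165) for LPA in WT and 554 (against 304) for LPA in KO. It called 10012 (against 9759) for LPS in WT and 9769 (against 9539) for LPS in KO. For the LPA interaction it called 4328 (against 3301) and for LPS against LPA 9489 (against 9148). For KO against WT with LPA it called 4204 of 11525. In the LPA interaction it called 20 chaperone list genes in place of 13. Pairing was weaker for LPS in WT (r = 0.09 to 0.26) and for LPS against LPA (0.07 to 0.30), and absent between genotypes (-0.58 to 0.18), where the numbers name samples only and the block was fitted within the 2 compared groups. There KO against WT with LPS gave 0 genes, against 131 in those groups without the block and 330 over all 24 libraries. Without a block, DESeq2 called 461 genes for LPA in KO, 581 (against 330) for KO against WT with LPS and 17 (against 0) for the LPS interaction, none of these 17 among the 10.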
